A study of Rattus norvegicus with 15 samples.

Results

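The alpha subunits of voltage-gated potassium channels were examined in rat midbrain neurons of the substantia nigra pars compacta, written SNc, and of the ventral tegmental area, written VTA. The 8 genes were Kcna1, Kcna2, Kcna4, Kcnb2, Kcnc1, Kcnc2, Kcnd2 and Kcnd3, taken by name, and all probe sets carrying one of these symbols in the platform annotation were kept. Each probe set reads RNA through several short probes, and whether these match 1 transcript or several was not checked. This gave 17 probe sets of the 8740 on the array that were not controls, and 8 of the 4736 gene symbols. Neurons were cut from tissue by laser capture microdissection (LCM), a laser method for isolating chosen cells. Their total RNA was the starting material for an Affymetrix rat array. There were 8 arrays of SNc neurons (SNc 1 to SNc 8) and 7 of VTA neurons (VTA 1 to VTA 6 and VTA 8). The labels name no strain, age, treatment or animal, and do not say how neurons were recognised, whether cells of several animals were pooled, or whether a number marks an animal. What the p-values measure is thus array-to-array spread, which may be technical.

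Voltage-gated potassium channels are rings of alpha subunits that open when the membrane depolarises and let potassium out, which ends the action potential and sets the interval to the next. Kcnd subunits and Kcna4 form A-type channels, which open below the spike threshold and inactivate fast, and in mouse SNc dopamine neurons the Kcnd3 channel is known to slow pacemaking. Kcnc subunits open only on strong depolarisation and close fast, a property known from fast-spiking neurons. Kcna1 and Kcna2 form low-threshold channels of axons, and Kcnb2 forms slow delayed rectifiers of the cell body.

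Signals below are the deposited linear intensities, and each difference is the SNc mean minus the VTA mean of log2(signal + 16), with its standard error (SE) from limma. Values are mean ± SD over 8 SNc and 7 VTA arrays unless stated otherwise. Because of the offset of 16, differences are understated for dim probe sets. Probe sets in the lowest 40% by mean, below a signal of about 26.3, were not tested. Median signals were 37.95 to 45.23 on the SNc arrays and 42.21 to 46.7 on the VTA arrays. Centring each array on its median raised every difference by 0.0925, which exceeds the size of several member differences below. The median correlations of the arrays with the others were 0.938 to 0.958, lowest for VTA 5. In tissue captured in bulk, fewer cells of a type and less RNA per cell cannot be told apart.

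One subunit, Kcnc1, was higher in SNc, and none was higher in VTA past the threshold. Of the 17 probe sets, 13 passed the filter, standing for 7 genes. Both probe sets of Kcna2 and the dimmest of Kcnc2 and of Kcnd3 did not. Over all 5244 probe sets tested, 1.98% passed an adjusted p of 0.05 in limma (Benjamini-Hochberg), with 0.839% higher in SNc and 1.14% higher in VTA. Among the member probe sets 1 of 13 passed, and 4 of 13 had an unadjusted p under 0.05, where 15.4% of all probe sets did. Of those 4, Kcna4 X16002cds_s_at passed the filter only through VTA, where it was high. The members were chosen with earlier results of these data known, so these shares are only a description. The median difference of the 13 was 0.06, beside -0.04 over all probe sets tested. Of the 13, 9 were positive and 4 negative, beside 2270 positive and 2974 negative of all 5244.

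**Figure D1:**
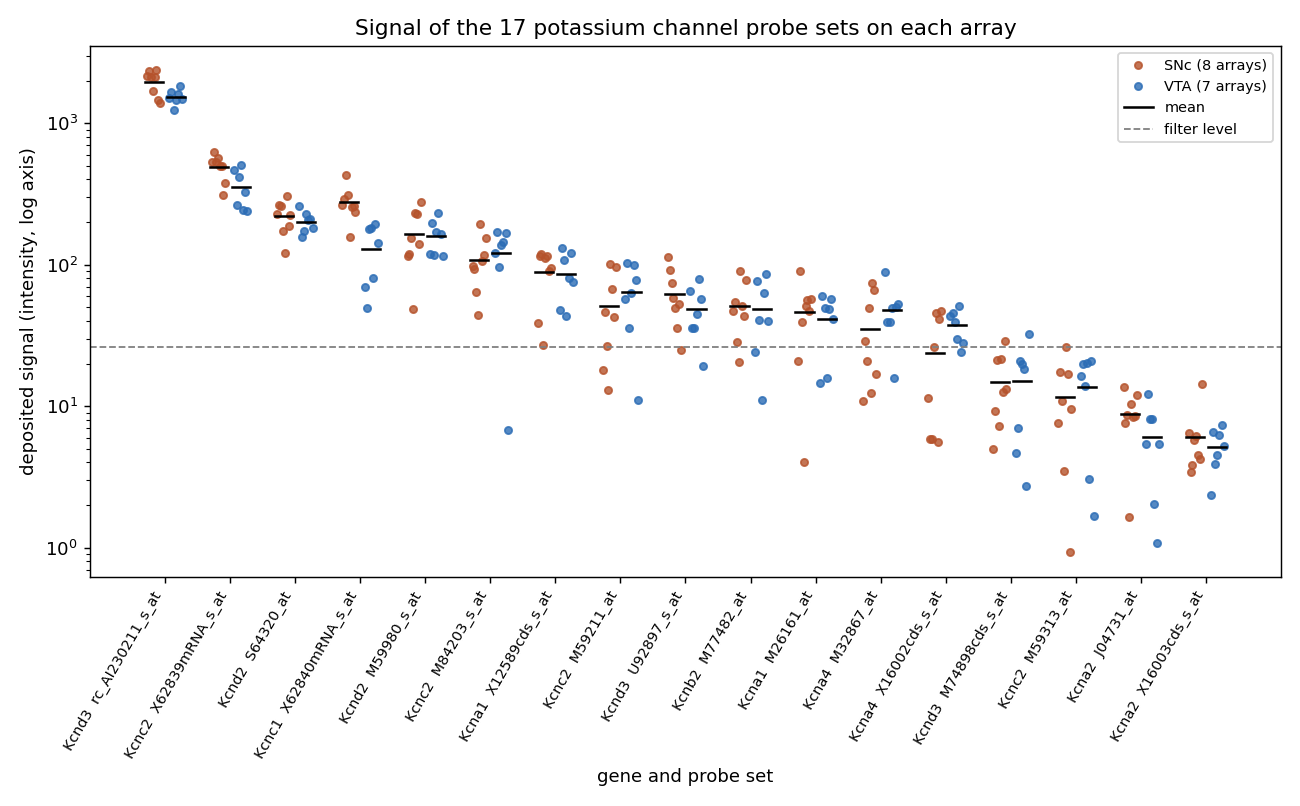
Deposited signal (log axis) of each of the 17 probe sets on every array, with 8 SNc points left of 7 VTA points, a bar at each mean and a dashed line at the filter level of 26.3. Kcnd3 rc_AI230211_s_at was brightest on all 15 arrays, and the Kcnc1 points of SNc lay mostly above those of VTA.

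The order of the probe sets by signal was firm at the top and loose below. A signal depends on how well the probes bind as well as on the amount of RNA, so this is an order of probe sets and not of transcripts. The brightest probe set of each gene was taken as its representative. Kcnd3 ranked first and Kcnc2 second on all 15 arrays. Kcnd2 and Kcnc1 followed, in an order that was opposite in the regions. Kcnc1 was above Kcnd2 on 7 of 8 SNc arrays, and Kcnd2 above Kcnc1 on 6 of 7 VTA arrays. Kcnc1 was above Kcna1, the next in order, on 14 arrays, and Kcna1 above Kcnb2 on 14. Kcnb2 and Kcna4 were not separated either, with Kcnb2 higher on 9 arrays, and Kcna4 was above Kcna2 on 14.

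Kcnc1, a fast delayed rectifier of the Kcnc group, had the largest difference of the members. Its 1 probe set, X62840mRNA_s_at, had a signal of 156 at the lowest, 263 at the median and 431 at the highest over the 8 SNc arrays, against 49.4, 143 and 193 over the 7 VTA arrays. All SNc arrays but SNc 5 lay above the highest VTA array, and SNc 5, at 156, lay below VTA 3, VTA 4 and VTA 6. The groups therefore overlapped, while 0.858% of all probe sets tested did not. The mean was 276 ± 77.5 in SNc and 128 ± 60.3 in VTA, 2.15-fold higher in SNc on the offset scale (log2 difference 1.11, SE 0.25, limma adjusted p = 0.0299). All 8 SNc arrays were above the VTA mean. The VTA arrays were uneven, with VTA 1, VTA 2 and VTA 5 at 69.0, 49.4 and 80.8 and the other 4 between 143 and 193.

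The call of Kcnc1 lay close to the threshold. Leaving out SNc 2, SNc 3, SNc 4, VTA 1, VTA 2 or VTA 5 ended it, with an adjusted p from 0.0547 to 0.0677 and a log2 difference from 0.94 to 1.09. Without SNc 2 or SNc 4 the difference hardly moved, at 1.09 and 1.08. The unadjusted p of limma in these fits ran from 0.000755 to 0.0011, against 0.000338 with all arrays. An adjusted p also depends on the other probe sets, and in these fits 56 to 69 of all passed, against 104. Testing without the filter on low signals gave an adjusted p of 0.0525 and an offset of 1 gave 0.0518. Over all 24 alternatives the log2 difference ran from 0.86 to 1.22 and the adjusted p from 0.0137 to 0.0677, and the call was kept in 16.

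**Figure D2:**
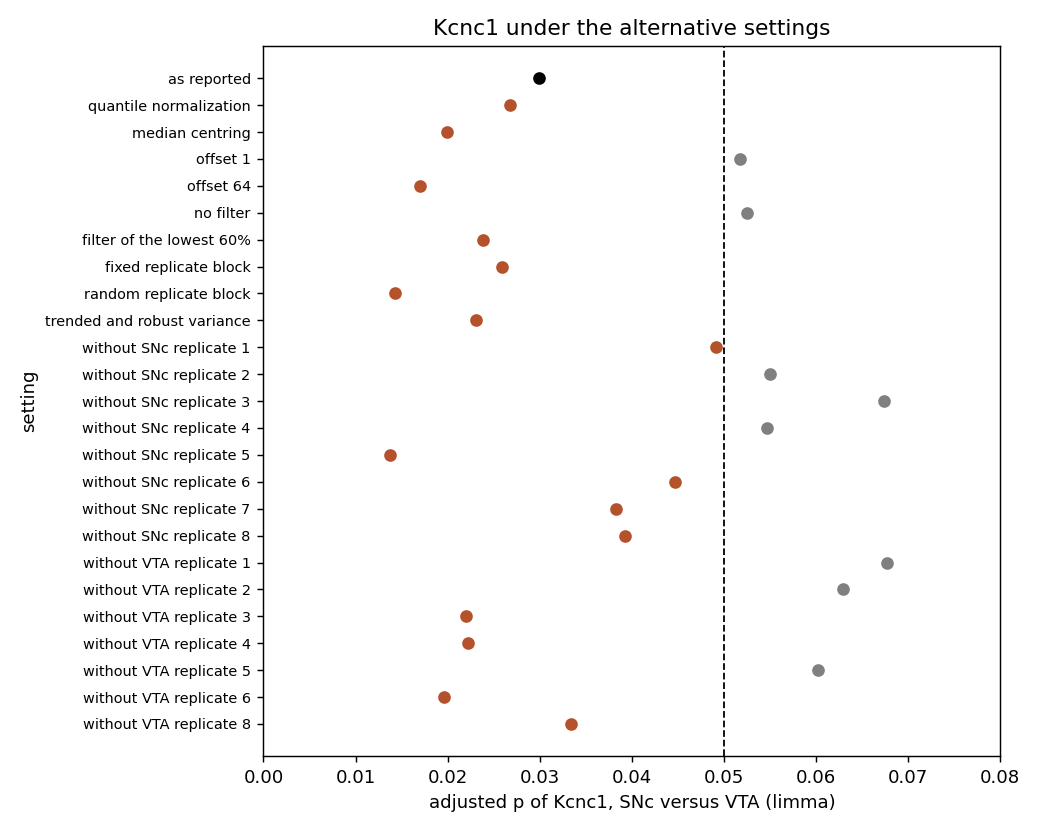
Adjusted p of Kcnc1 in SNc versus VTA (limma, horizontal axis) under each setting (vertical axis), with the value as reported in black, settings that kept the call in orange and those that lost it in grey, and a dashed line at 0.05. The call was kept in 16 of 24 alternatives, and the lost ones lay between 0.0518 and 0.0677.

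Kcnc2, the closest relative of Kcnc1 among the members, had 4 probe sets that did not behave alike. The brightest, X62839mRNA_s_at, had a signal of 310, 514 and 630 (lowest, median and highest) in SNc, against 241, 324 and 505 in VTA. SNc 7 and SNc 8 were the lowest SNc arrays and lay within the VTA range, and VTA 2, VTA 5 and VTA 8 lay below every SNc array. The difference was 0.50 (SE 0.19) and did not pass (adjusted p = 0.209, unadjusted 0.0173). Its 95% interval ran from 0.10 to 0.90. The second probe set, M84203_s_at, had 108 ± 47.2 in SNc and 120 ± 56.4 in VTA, with a difference of 0.0011 (SE 0.37). It held 1 array far from the rest, VTA 8 at 6.84 where the other VTA arrays had 95.8 to 171. Leaving out VTA 8 turned its difference to -0.39 (adjusted p = 0.442). The third, M59211_at, had 51.4 ± 33.9 in SNc and 63.5 ± 33.0 in VTA (difference -0.27, SE 0.34). The dimmest, M59313_at, lay below 26.3 on all 15 arrays. Over the 15 arrays M84203_s_at and M59211_at varied together (Pearson r = 0.85), but the brightest probe set followed neither, at r = 0.0651 and -0.234.

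The sequences before the start of both Kcnc genes are shown because Kcnc1 is the member that passed and Kcnc2 is its relative that did not. Each is the 250 bases before the gene's annotated start in RefSeq, assembly GRCr8, plus strand, chr1:106038997-106039246 for Kcnc1 and chr7:49587364-49587613 for Kcnc2. Capitals mark the GC box GGGCGG on either strand, where the other strand reads CCGCCC.
Kcnc1: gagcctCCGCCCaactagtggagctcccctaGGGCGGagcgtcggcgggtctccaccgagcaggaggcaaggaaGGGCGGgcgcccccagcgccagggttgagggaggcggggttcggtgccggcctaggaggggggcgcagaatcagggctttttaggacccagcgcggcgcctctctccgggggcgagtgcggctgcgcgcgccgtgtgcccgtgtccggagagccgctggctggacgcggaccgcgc
Kcnc2: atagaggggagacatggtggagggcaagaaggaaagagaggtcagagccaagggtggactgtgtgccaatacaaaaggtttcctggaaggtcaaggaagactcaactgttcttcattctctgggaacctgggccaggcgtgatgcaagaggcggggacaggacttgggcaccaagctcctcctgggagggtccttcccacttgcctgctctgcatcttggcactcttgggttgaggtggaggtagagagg
The Kcnc1 window held 3 GC boxes and the Kcnc2 window 0. One or more was present in 30.5% of 33469 rat windows of this length, and 3 or more in 7.41%. Kcnc1 had a GC content of 74.4% and Kcnc2 one of 56.0%, beside a median of 51.2% over all windows. Kcnc2 has a second annotated start, and its window, which overlaps the first, also held 0. Of the other members, Kcna2 held 3 GC boxes, Kcnd3 1, and Kcna4 and Kcnd2 0, so high and low signals were found with and without the box. The TATA box TATAAA and the cAMP response element TGACGTCA, on either strand, were in none of the 7 member windows, and in 12.9% and 1.59% of all. Kcna1 and Kcnb2 were not matched. These are matches of letters in a window and not sites shown to be used.

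Kcnd3, the A-type subunit known to set pacemaking in SNc dopamine neurons of the mouse, was the brightest member in both regions. Probe set rc_AI230211_s_at had a signal of 1388, 2125 and 2371 (lowest, median and highest) in SNc, against 1233, 1495 and 1840 in VTA. The SNc arrays lay at 2 levels. SNc 1, 2, 3, 5 and 6 were at 2125 to 2371 and above every VTA array, while SNc 4, SNc 7 and SNc 8 were at 1681, 1464 and 1388, inside the VTA range. The mean was 1958 ± 390 in SNc and 1537 ± 190 in VTA. The difference of 0.33 (SE 0.15) did not pass (adjusted p = 0.291, unadjusted 0.039), with a 95% interval from 0.02 to 0.64. A second probe set, U92897_s_at, pointed the same way at a far lower signal, 62.3 ± 29.0 in SNc and 48.2 ± 20.5 in VTA (difference 0.27, SE 0.24). The 2 followed each other in part over the arrays (r = 0.514, n = 15). The remaining one, M74898cds_s_at, was below 26.3 on 13 of 15 arrays, at a mean of 14.8 in SNc and 15.1 in VTA.

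Kcnd2, the other A-type subunit of the Kcnd group, did not differ between the regions beyond its spread by either probe set. S64320_at had a signal of 120, 227 and 304 (lowest, median and highest) in SNc, against 157, 205 and 259 in VTA. The SNc arrays enclosed the whole VTA range. The difference was 0.09 (SE 0.17, 95% interval -0.27 to 0.45). M59980_s_at had 164 ± 75.6 in SNc and 159 ± 45.1 in VTA, with a difference of -0.05 (SE 0.26). That sign was positive after median centring (0.04). Its lowest array was SNc 4 at 48.6, where the other SNc arrays had 116 to 276. Over 15 arrays the probe sets of Kcnd2 were nearly unrelated (r = 0.048).

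Kcna4, the A-type subunit of the Kcna group, was the one gene whose probe sets both had a lower mean in SNc. X16002cds_s_at had a signal of 5.55, 18.7 and 47.2 (lowest, median and highest) in SNc, against 24.3, 39.6 and 51.3 in VTA. The SNc arrays were split. SNc 5, SNc 7 and SNc 8, at 45.4, 41.5 and 47.2, were at VTA level, SNc 4 was at 26.0, and SNc 1, 2, 3 and 6 lay between 5.55 and 11.5. The difference was -0.56 (SE 0.26) and did not pass (adjusted p = 0.304, unadjusted 0.0436). The SNc mean of 23.6 lay below the filter level of 26.3 and the VTA mean of 37.3 above it, with 6 of 15 arrays below. This probe set thus passed the filter only through VTA, where it was high, and its p is given as a description. The size of the difference depended on the offset, from -0.23 with 64 to -1.07 with 1. M32867_at had 35.01 ± 25.05 in SNc and 47.9 ± 22.1 in VTA (difference -0.40, SE 0.28). It did not repeat the split. SNc 5 and SNc 8 were at 12.5 and 16.9 and SNc 6 highest at 74.2, and the correlation of the 2 probe sets over 15 arrays was 0.013.

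Kcna1, a low-threshold subunit of axons, did not differ between the regions beyond its spread. X12589cds_s_at had 88.8 ± 36.2 in SNc and 86.5 ± 34.7 in VTA (difference 0.0044, SE 0.27, 95% interval -0.56 to 0.57). M26161_at had 45.9 ± 25.9 in SNc and 41.0 ± 18.6 in VTA (difference 0.06, SE 0.30). These 2 probe sets followed each other more closely than those of any other member (r = 0.919, n = 15), with SNc 1, SNc 4, VTA 1 and VTA 4 low in both. In X12589cds_s_at those arrays lay at 38.7, 27.0, 47.4 and 43.2, and all others at 74.8 or more.

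Kcna2, its usual partner in axonal channels, had no signal above the filter level. J04731_at had 1.64, 8.56 and 13.6 (lowest, median and highest) in SNc, against 1.08, 5.43 and 12.2 in VTA. X16003cds_s_at averaged 6.09 ± 3.50 in SNc and 5.16 ± 1.72 in VTA. Both were below 26.3 on all 15 arrays, so no level can be compared.

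Kcnb2, a slow delayed rectifier subunit, was dim and did not differ beyond its spread. M77482_at had a signal of 20.5, 48.7 and 89.7 (lowest, median and highest) in SNc, against 11.01, 40.6 and 85.9 in VTA. The ranges of the 2 regions nearly coincided. The difference was 0.11 (SE 0.27, 95% interval -0.46 to 0.68), and it was -0.08 without VTA 4, the lowest array.

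**Figure D3:**
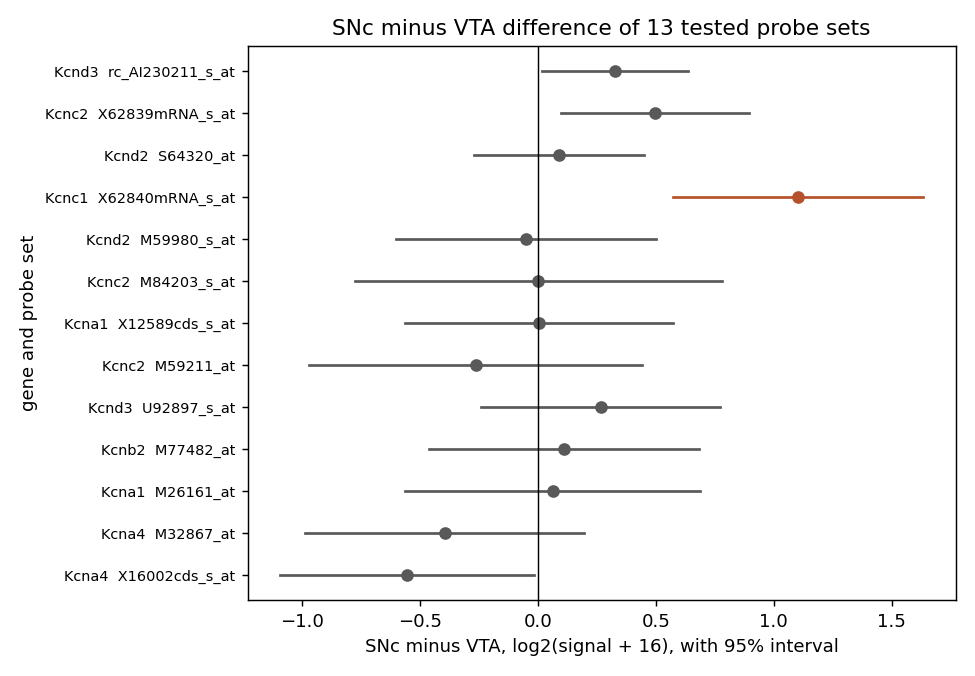
SNc minus VTA difference on the log2(signal + 16) scale (horizontal axis) of the 13 tested probe sets (vertical axis), ordered by mean signal, with points for the estimate and lines for limma's 95% interval. The probe set in orange, Kcnc1, passed the threshold, and those in grey did not.

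The 13 tested probe sets differed in how they varied from array to array within a region. A block of 6, from 4 genes, varied together. It held both probe sets of Kcna1, M84203_s_at and M59211_at of Kcnc2, M59980_s_at of Kcnd2, and Kcnb2. It was picked out after its values were seen and is given as a description. Its 15 pairs had r from 0.26 to 0.919 over 15 arrays, all positive, and from 0.26 to 0.92 after the region means were taken out. SNc 4 was the lowest SNc array in all 6 and in no other tested member. Kcnc1 ran against the block or was unrelated to it within regions, with r from -0.517 for M59211_at to -0.0852 for X12589cds_s_at. Pairs of the same gene had a median r of 0.0651, with 6 of 7 positive, beside -0.042 with 35 of 71 positive for pairs of different genes. The brightest probe sets of Kcnc2 and Kcnd2 stood outside the block that held their dimmer ones. Kcna4 X16002cds_s_at ran against Kcnd3 rc_AI230211_s_at (r = -0.756, and -0.671 within regions). The probe sets of an array share its scaling and its hybridisation, and part of any such correlation can come from them. The 3' to 5' signal ratios of the control probe sets for actin and GAPDH, a measure of RNA integrity, ran from 6.14 to 15.4 and from 3.31 to 5.05 in SNc, and from 7.4 to 9.43 and from 2.94 to 6.82 in VTA. Their correlation with the 6 probe sets of the block lay between -0.139 and 0.266 for actin and between -0.308 and 0.447 for GAPDH. For Kcnc1 it was 0.0753 for actin and -0.301 for GAPDH. Over all 13 tested probe sets it ran from -0.263 to 0.266 for actin. For GAPDH it ran from -0.499, for the brightest probe set of Kcnc2, to 0.447. Whether RNA integrity had a part in any difference was not tested.

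**Figure D4:**
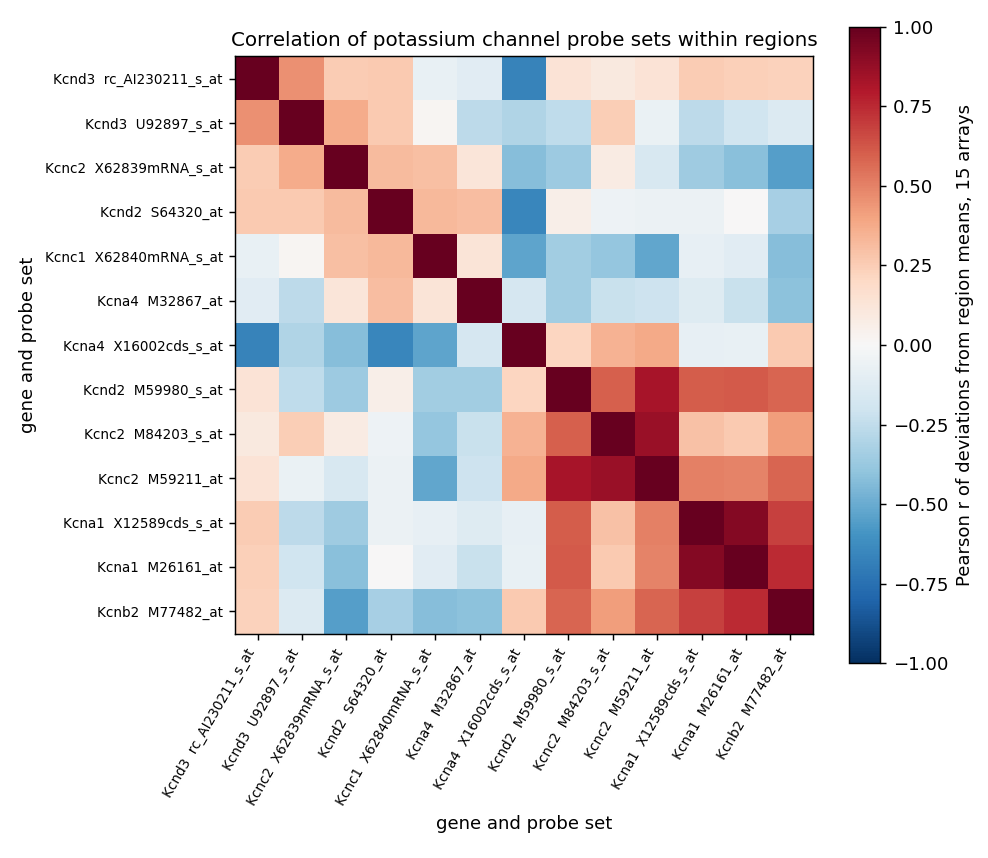
Pearson r between the 13 tested probe sets over 15 arrays after each region's mean was taken out, on a colour scale from -1 (blue) to 1 (red). The 6 probe sets at the lower right, with both of Kcna1, 2 of Kcnc2, 1 of Kcnd2 and Kcnb2, had r from 0.26 to 0.92 among themselves.

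Genes whose pattern over the 15 arrays was most like that of a member were taken as the 3 with the highest Pearson r to its representative, for the 7 members whose representative passed the filter, so not for Kcna2. For Kcnc1 they were Atp2a2, a calcium pump of the endoplasmic reticulum (r = 0.867), Nrgn, the calmodulin-binding protein neurogranin (0.845), and Nefh, the heavy neurofilament chain (0.844). Their r within regions was 0.69, 0.656 and 0.639, so a part of the likeness was the difference between the regions. Atp2a2 and Nefh were themselves higher in SNc (differences 0.57 and 1.08, adjusted p = 0.0478 and 0.0153). For Kcnd3 the 3 were Pcp4l1 (0.867), Rab5a, a GTPase of early endosomes (0.84), and Rpl4, a ribosomal protein (0.839). For Kcnc2 they were Ctsd, a lysosomal protease (0.886), Exoc2, an exocyst subunit (0.862), and Hadhb, an enzyme of fatty acid oxidation (0.856). In both, the r within regions was close to the r over all arrays, from 0.779 to 0.877. For Kcna1 they were Hsd17b4, Ivd and Rfc4 at 0.843 to 0.899, for Kcnb2 Bclaf1, Rpl6 and Hnrnpa1 at 0.827 to 0.853, for Kcnd2 Pdpk1, Adcy3 and Plk1 at 0.734 to 0.789, and for Kcna4 Cdk4, Ptgs1 and Aurkaip1 at 0.752 to 0.774. With 15 arrays and so many candidates, high values of this kind arise easily.

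Other potassium channel genes showed no difference past the threshold. Of the 58 other genes listed, 28 had a probe set and 18 had one that passed the filter. Limma called 0 of the 21 probe sets tested, where 1.98% of all were called. The unadjusted p was under 0.05 for 3 of the 21, where it was for 15.4% of all. Kcns3, a subunit that is silent alone and modifies Kcnb channels, had 276 ± 50.8 in SNc and 162 ± 66.3 in VTA (difference 0.81, SE 0.24, adjusted p = 0.0906). It passed without VTA 8 (adjusted p = 0.0483), and its adjusted p ran from 0.0483 to 0.179 over the 15 fits that each left out 1 array. VTA 5, also low for Kcnc1, was at 44.3 for Kcns3, where the other VTA arrays had 137 to 256. Without VTA 5 the difference of Kcns3 fell to 0.57 (limma adjusted p = 0.0851). The signal of Kcns3 went with that of Kcnc1 (r = 0.738 over 15 arrays and 0.506 within regions, with 0.744 in SNc and 0.456 in VTA). Among the other alpha subunits, 4 of 15 probe sets were positive and 11 negative, with a median of -0.11. Over all probe sets tested, 2270 were positive and 2974 negative. Kcnh2, an ether-a-go-go related channel, had differences of 0.49 and -0.12 by its 2 probe sets, and Kcnh3, of the same family, -0.32 and -0.42. Kcnc4, the third Kcnc gene with a probe set, was at 53.0 ± 22.8 in SNc and 56.0 ± 10.5 in VTA (difference -0.11, SE 0.18). Of the accessory subunits, Kcnab2, a beta subunit of Kcna channels, differed by 0.28 and -0.33 by its 2 probe sets, and Dpp6, which speeds Kcnd channels, by -0.19. In the group of calcium-activated and pacemaker channels, Kcnmb1, a beta subunit of large-conductance channels, had 132 ± 30.7 in SNc and 195 ± 26.8 in VTA (difference -0.53, SE 0.15, adjusted p = 0.0816). Kcnn1, a small-conductance channel, had 60.2 ± 15.3 in SNc and 85.5 ± 10.5 in VTA (difference -0.43, SE 0.14, adjusted p = 0.127). Kcnn3, of the same group, differed by -0.08.

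Markers of other cell types were read beside these values. Over all probe sets tested, 1.98% passed the threshold and 15.4% had an unadjusted p under 0.05. The dopamine neuron list had high signals in both regions and 0 of 10 probe sets past the threshold in limma, with 3 at an unadjusted p under 0.05. Th, which makes the dopamine precursor, was at 6615 ± 527 in SNc and 7193 ± 770 in VTA, and Slc6a3, the dopamine transporter, at 7245 ± 603 in SNc and 5782 ± 979 in VTA by M80570_at and at 788 ± 162 in SNc and 738 ± 217 in VTA by S76145_s_at. The largest differences of the list were those of Nr4a2, a transcription factor of dopamine neurons, at -0.52 and -0.65 by its 2 probe sets (adjusted p = 0.0906 and 0.228). Of the list for GABA and fast-spiking neurons, 2 of 5 tested probe sets were higher in SNc. Gad1, which makes GABA, was at 469 to 998 in SNc and 163 to 440 in VTA (adjusted p = 0.00154), with no overlap. Pvalb, a calcium buffer of fast-spiking neurons, was at 102 to 239 in SNc and 8.32 to 118 in VTA (adjusted p = 0.0282). Gad2 and both probe sets of Slc32a1, which also mark GABA neurons, differed by 0.23, -0.42 and 0.07 and did not pass. The Slc32a1 probe set at -0.42, opposite in sign to Gad1 and Pvalb, had an unadjusted p of 0.0102, and 3 of the 5 had one under 0.05. The summed signal of the list ran from 971 to 1904 in SNc and from 623 to 1223 in VTA. Both Sst probe sets, for a marker of another class of GABA neuron, were left out by the filter, but M25890_at ran from 6.45 to 169 in SNc, highest on SNc 8, and from 6.75 to 329 in VTA, highest on VTA 5, which also gave the highest VTA sum. Kcnc1 and Pvalb had r = 0.84 over 15 arrays and 0.652 within regions, of which the 8 SNc arrays alone gave 0.285 and the 7 VTA arrays 0.762. Kcnc1 and Gad1 had r = 0.719 over 15 arrays and 0.26 within regions, with -0.0222 in SNc and 0.374 in VTA. SNc 5, the lowest SNc array for Kcnc1, was the highest for Gad1 at 998. VTA 2 and VTA 5, low for Kcnc1, were lowest for Pvalb at 8.32 and 12.4, but VTA 1, also low for Kcnc1, was at 57.8, the third highest VTA array for Pvalb. The part of such neurons in the Kcnc1 result was not tested.

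The remaining marker lists had 0 probe sets past the threshold in limma. Slc17a7, the only glutamate neuron marker with a probe set, was near 0 at 1.59 to 6.64 in SNc and 2.41 to 7.35 in VTA. Oligodendrocyte markers were abundant, and 8 of 9 tested probe sets had a negative difference, 2 of them at an unadjusted p under 0.05. Of all 5244 probe sets tested, 2974 had a negative difference, and 15.4% had an unadjusted p under 0.05 in either direction. Their summed signal ran from 6033 to 11470 in SNc and from 9017 to 13530 in VTA, and Mbp, a myelin protein, was at 3784 ± 899 in SNc and 4838 ± 983 in VTA. Astrocyte markers summed to 3874 to 5546 in SNc and 3572 to 7015 in VTA, microglia markers to 181 to 305 and 221 to 355, and vessel and blood markers to 214 to 444 and 243 to 1321, and no tested probe set of these lists had an unadjusted p under 0.05. Gfap was not analysed here.

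**Figure D5:**
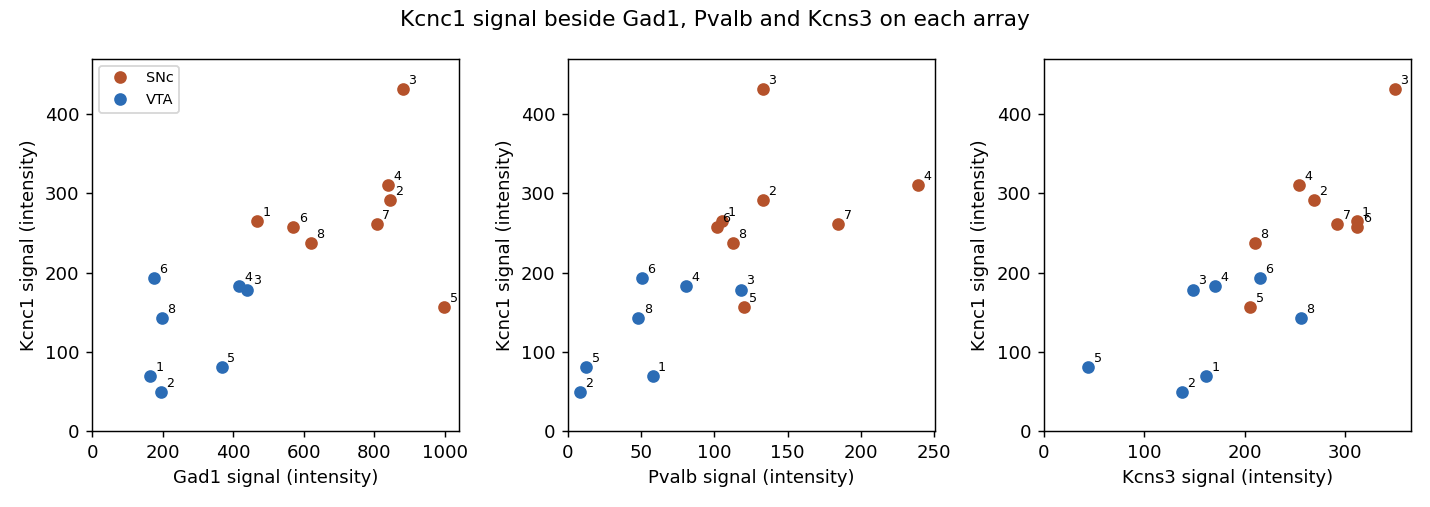
Kcnc1 signal (vertical axis, intensity) against the signal of Gad1, Pvalb and Kcns3 (horizontal axes, intensity) on the 8 SNc arrays (orange) and 7 VTA arrays (blue), each point labelled with its array number. SNc 5 was low for Kcnc1 and high for Gad1, and VTA 2 and VTA 5 were low for both Kcnc1 and Pvalb, while VTA 1 was low for Kcnc1 and not for Pvalb.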

How the data were processed

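The table deposited by the authors holds 1 linear intensity per probe set and array, and its 2% trimmed mean was 150.2 on each of the 15 arrays, so the authors had scaled it. How background was corrected, RNA amplified and signals computed is not given in the sources used here. Of 8799 rows, 59 control probe sets were left out. Genes were named from the platform annotation. The symbols of the 17 member probe sets were the same in the rat gene table of GRCr8, used for names only. Values were turned into log2(intensity + 16), the lowest 40% by mean of these were left out, and regions were compared by limma's moderated two-sided test (version 3.58.1, R 4.3.3), adjusted by Benjamini-Hochberg over 5244 probe sets at a threshold of 0.05. For arrays, their number limits the precision. The code of the fit was checked on simulated data with independent noise for each probe set and array. Arrays or probe sets that vary together were not simulated, so this does not test the p-values of these data. The members and lists were chosen with earlier results of these data known. Named were all members, per list of channels the 3 genes of smallest p, marker genes past the threshold with Th, Slc6a3, Gad1, Pvalb, Gfap and Mbp, and the 3 genes most like each of the 7 members that passed the filter. Kcnc4, Kcnab2, Gad2, Slc32a1, Nr4a2, Sst and Slc17a7 were named after their values were seen where the rule did not give them. Alternatives were an offset of 1 or 64, no filter or one of 60%, quantile normalization, centring on the median, a fixed or random replicate block, a trended and robust variance, and leaving out each array in turn. The labels give no batch.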

Additional observations from a re-analysis of the deposited data

Results flagged for a closer look

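In each region the highest and lowest array of every member probe set was compared with its neighbour by Dixon's criterion. The linear signal was used, over 34 groups of 7 or 8 arrays, and 1 array stood apart. It was SNc 8 for Kcna2 X16003cds_s_at, at a signal of 14.3 where the next SNc array had 6.45 and the lowest 3.44. Chance gives about 1 in 20 groups such a gap, and the probe set lies below the filter level on all 15 arrays.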

How the results depend on the processing

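Of the 13 member differences, 8 kept their direction in every alternative in which they were tested, and the 12 other than Kcnc1 passed the threshold in none (lowest adjusted p 0.0914). The count of members past the threshold was 0 with an offset of 1 and with no filter, and 0 to 1 on leaving out single arrays. The count over all probe sets was 60 with an offset of 1, and 56 to 115 on leaving out single arrays, where it was more than 1.5 times below the 104 without SNc 2, SNc 3, SNc 4, VTA 1, VTA 2, VTA 3, VTA 5 or VTA 6. Of the 104 calls, 44 were higher in SNc and 60 in VTA, and after median centring 67 and 37. Among the other potassium channel genes the count was 0 to 1 on leaving out single arrays. The 5 member probe sets that changed direction differed by at most 0.11 to begin with. Kcnd2 M59980_s_at was at 0.0024 after quantile normalization, 0.042 after median centring and -0.17 to 0.14 on leaving out single arrays. Kcna1 M26161_at was at -0.0089 with an offset of 1 and -0.075 to 0.27 on leaving out single arrays. Kcna1 X12589cds_s_at was at -0.011 with an offset of 1, -0.014 with the fixed replicate block and -0.11 to 0.17 on leaving out single arrays. Kcnc2 M84203_s_at was at -0.056 with an offset of 64, -0.025 with the fixed and -0.0022 with the random replicate block, and -0.39 to 0.14 on leaving out single arrays. Kcnb2 was at -0.079 to 0.24 on leaving out single arrays. The cause was not tested. The labels do not say whether arrays of the same number share an animal, and such arrays were not taken as pairs. Correlations of their deviations ran from 0.0439 to 0.254, over 0.1 in 5 of 7 pairs. Of 7 SNc arrays, 3 were closest to the VTA array of their number. With the fixed replicate block the SE of Kcna1 was 0.14 against 0.27 by X12589cds_s_at and 0.16 against 0.30 by M26161_at. For Kcnc2 M84203_s_at it was 0.40 against 0.37. A shared origin of arrays with the same number was not tested. The count over all probe sets was 99 with the fixed replicate block, which drops SNc 7, and 153 with the random one, and Kcnc1 had an adjusted p of 0.0259 and 0.0143.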
